A study of Mus musculus with 12 samples.

Results

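The transcripts of 8 integrin subunits were followed in mouse CD8+ T cells before and after activation, and in cells activated with or without sodium lactate. They are the α chains Itgal, Itga4, Itgae, Itga6 and Itgav and the β chains Itgb2, Itgb1 and Itgb7, taken by symbol from a table of 13780 genes, in which no symbol of the 8 repeats. Naïve CD8+ T cells were purified with magnetic beads by positive selection from spleens of wild type C57BL/6J mice aged 8 to 12 weeks and frozen without activation (4 libraries, 4 donors). Activated cells were kept for 72 h with beads against CD3 and CD28 and 10 U/ml IL-2, in plain media (4 libraries) or with 40 mM sodium lactate (4 libraries). The activated libraries came from 5 donors, of which 3 gave a library of each condition. The control was plain media and not an equal dose of another sodium salt, so lactate and the added sodium cannot be told apart.

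Integrins are surface receptors of an α and a β chain that hold cells to other cells and to matrix. A chain reaches the surface with a partner, so the dimers a cell can make depend on which α and β transcripts it holds. On T cells αLβ2 (LFA-1) binds ICAM molecules during contact with antigen-presenting and target cells. The α4 chain pairs with β1 as a receptor for VCAM-1 and fibronectin and with β7 as a receptor for MAdCAM-1, which guides T cells to the gut. The αE chain pairs with β7 alone and binds E-cadherin on epithelium, α6 pairs with β1 on T cells as a laminin receptor, and αv pairs with several β chains as a receptor for vitronectin and latent TGF-β. Integrins are kept inactive until signals from the T cell receptor or chemokine receptors act on their tails, a step that transcript levels do not show.

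Itga4, Itgb7 and Itgb1 are the chains of the α4 dimers, and the 250 bases upstream of their starts are shown. They are from the RefSeq promoter table on GRCm38.p6 and run 5′ to 3′ on the gene's strand. Of the 8 members, 4 matched that table (Itga4, Itgav, Itgb1 and Itgb7). The upstream window of Itga4 lies at chr2:79255176-79255425 on the plus strand, that of Itgb7 at chr15:102231936-102232185 on the minus strand and that of Itgb1 at chr8:128685404-128685653 on the plus strand. Capitals mark CACCC or its reverse complement GGGTG, the letters read by Krüppel-like factors, which include KLF2 of resting T cells.
Itga4: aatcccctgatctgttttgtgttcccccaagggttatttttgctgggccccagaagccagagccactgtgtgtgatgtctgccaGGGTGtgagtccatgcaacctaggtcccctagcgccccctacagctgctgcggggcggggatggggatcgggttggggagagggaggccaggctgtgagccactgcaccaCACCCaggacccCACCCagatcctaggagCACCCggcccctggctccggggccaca
Itgb7: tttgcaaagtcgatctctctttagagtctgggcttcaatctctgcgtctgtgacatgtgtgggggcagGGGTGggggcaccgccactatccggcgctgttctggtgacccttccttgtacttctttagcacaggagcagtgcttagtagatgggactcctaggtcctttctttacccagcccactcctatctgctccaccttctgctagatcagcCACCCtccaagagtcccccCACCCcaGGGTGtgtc
Itgb1: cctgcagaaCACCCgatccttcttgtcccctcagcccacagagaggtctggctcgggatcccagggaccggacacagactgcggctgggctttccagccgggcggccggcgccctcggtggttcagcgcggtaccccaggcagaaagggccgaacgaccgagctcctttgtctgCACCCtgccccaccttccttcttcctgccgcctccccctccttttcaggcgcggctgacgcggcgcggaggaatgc
The Itga4 and Itgb7 sequences held 4 matches each, the Itgb1 sequence held 2 and the Itgav sequence held 1. At least 1 match was present in 51.3% of 27025 promoter windows of this length, so its presence does not set these genes apart. That share does not speak to the number of matches in a window. The core letters of SP1, RUNX and ETS factors were also counted in these windows and are not marked. The match is a description of letters and shows no binding.

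Library totals ran from 14726904 to 21478137 counts, and all 8 members passed the filter on low values. Levels within a gene are given as CPM, counts set against the TMM-scaled size of their library, and levels of different genes are set side by side as TPM, which also take account of gene length. Cd8a and Cd8b1 were present in every library. The labels number 8 libraries from 1 to 9 (the low run) and 4 from 16 to 26 (the high run). Naïve replicate 4, the only naïve library of the high run of library numbers, stood apart from the other naïve libraries, with 388 CPM of Cd8a where the highest naïve library had 1208 CPM, and results that rest on it are given with and without it. Naïve libraries also held transcripts of other spleen cells, given beside the comparisons with naïve cells. p-values measure the spread between these libraries.

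In TPM, Itgb7 and Itgb2 were the most abundant of the 8 before activation and in plain media. In naïve cells the order was Itgb7 (689.5 ± 264 TPM, SD, n = 4), Itgb2 (464 ± 148), Itgal (266 ± 68.8), Itga4 (151 ± 27.7), Itgb1 (137 ± 21.3), Itgae (125 ± 51.7), Itga6 (35.3 ± 18.3) and Itgav (15.6 ± 9.05). Of the neighbours in that order, only Itgae and Itga6 had ranges that did not overlap. In plain media the order was Itgb7 (643 ± 129 TPM), Itgb2 (571 ± 44.1), Itgal (282 ± 20.9), Itgb1 (191 ± 16.9), Itga6 (30.6 ± 3.12), Itga4 (27.4 ± 10.9), Itgav (21.6 ± 5.68) and Itgae (1.80 ± 1.41). With sodium lactate it was Itgb2 (446 ± 45.1 TPM), Itgal (340.0 ± 49.1), Itgb7 (319 ± 80.3), Itgb1 (198 ± 32.1), Itga4 (22.3 ± 3.26), Itga6 (20.8 ± 0.653), Itgav (19.8 ± 4.72) and Itgae (0.862 ± 0.269). In activated cells the ranges of Itgb1 and Itgae were clear of their neighbours in each condition, whereas Itgb7 overlapped Itgb2 in plain media and Itgal with lactate, and Itga4, Itga6 and Itgav overlapped their neighbours among the 3.

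**Figure D1:**
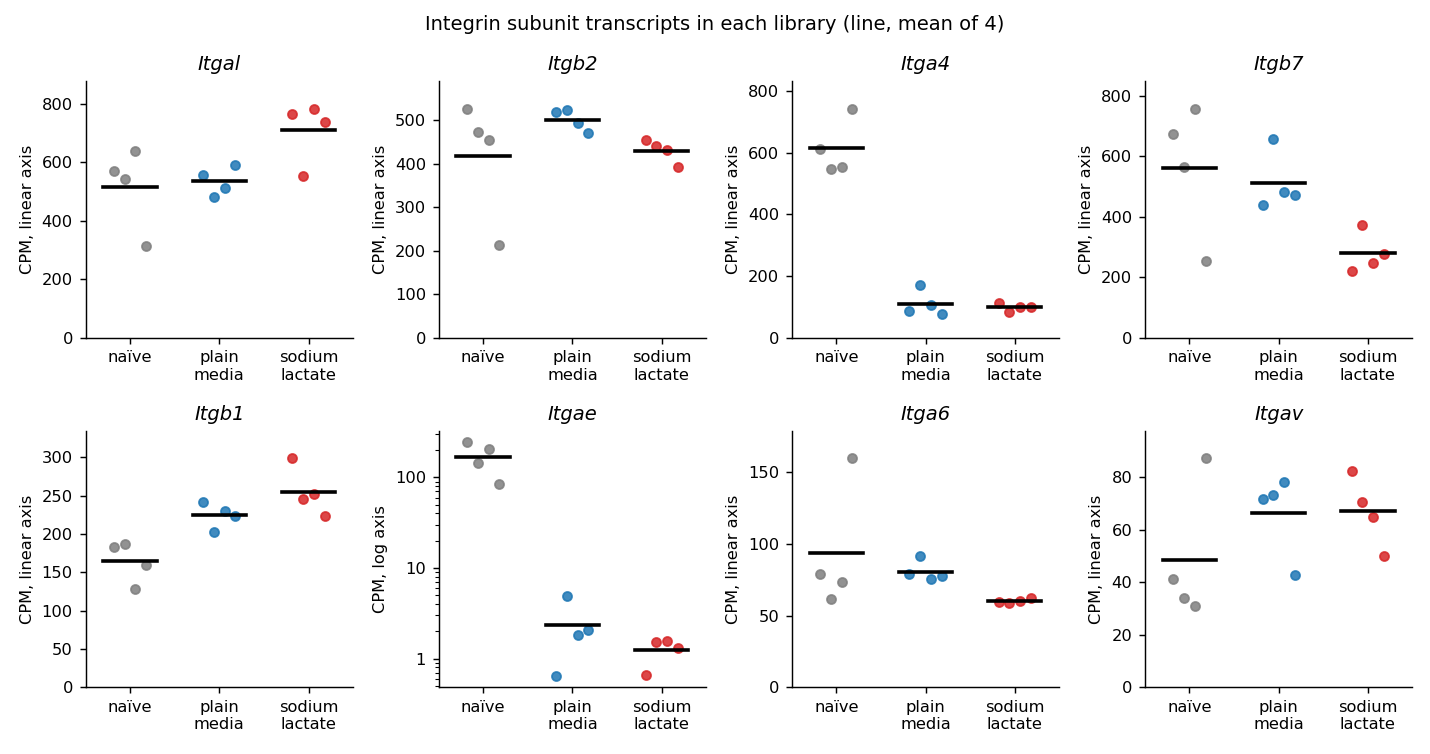
CPM of each integrin subunit (vertical axes, linear from 0 except the log axis of Itgae) in the 4 naïve, 4 plain media and 4 sodium lactate libraries. Each point is a library in the order of its replicate number and each line is the mean of 4. Itga4 and Itgae sat far lower in all 8 activated libraries than in the naïve ones, and Itgb7 was at most 374 CPM in the lactate libraries and at least 441 CPM in the plain media libraries.

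The comparison of sodium lactate with plain media asks what 40 mM sodium lactate changed in cells activated alike. None of the 8 subunits passed the threshold of edgeR's quasi-likelihood test (adjusted p of at most 0.01), against 25.1% of all tested genes called in that comparison. At an unadjusted p under 0.05 there was 1, Itgb7, which was 0.546-fold its level in plain media. DESeq2 called 1 of the 8 (Itgb7, lower) and limma voom called 0. In Itgb7, Itga6 and Itgb2 every lactate library lay below every plain media library, which is 3 of 8 members, where 44.7% of all tested genes had groups that did not overlap. The median log2 fold change of the 8 was -0.19, beside -0.0016 over all tested genes.

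Itgb7 (chromosome 15, 102215995 to 102231944, minus strand, 16 merged exons) encodes β7, the chain shared by α4β7 and αEβ7. In plain media it had 441, 658, 481 and 472 CPM in replicates 1 to 4. With sodium lactate it had 220.2, 374, 248 and 278 CPM. The groups did not overlap, and the log2 fold change was -0.87 ± 0.28 (SE), with an adjusted p of 0.0263 (edgeR) and an exact two-sided permutation p of 0.0286, the smallest that 4 against 4 allows. In the 3 donors with a library of each condition it was lower with lactate in 3 of 3, at 220.2 against 441 CPM, 278 against 472 CPM and 374 against 481 CPM. The difference of mean log2 CPM was -0.85 within the low run of library numbers (2 lactate against 3 plain media libraries). It was -0.84 within the high run (2 against 1). These libraries include those of the 3 donors. The gene passed the threshold when naïve replicate 4 was left out of the fit (adjusted p = 0.0016, edgeR), when the naïve libraries were left out altogether (adjusted p = 0.0022) and in a fit of the activated libraries with donor as a block (-0.70, adjusted p = 0.0036). Itgb7 stayed uncalled in 20 of 25 alternatives. Among these were the donor block over all 12 libraries (-0.71, adjusted p = 0.20, edgeR) and a term for the library run (-0.75, adjusted p = 0.034). With single libraries left out the adjusted p reached 0.086, without plain media replicate 2 (-0.73, edgeR).

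Itga4 (chromosome 2, 79255426 to 79333123, plus strand, 27 merged exons) encodes α4, the partner of β7 and β1. It had 87.2, 171, 106 and 76.1 CPM in plain media. With lactate it had 113, 81.9, 101 and 98.2 CPM, all within the range of the plain media libraries. The log2 fold change was -0.16 ± 0.22, with an adjusted p of 0.599 (edgeR), and it turned to 0.13 without plain media replicate 2, the highest library. Of its exon bases 8.04% overlap Cerkl on the opposite strand, and whether reads were counted by strand is not given in the sources used here.

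Itgb1 (chromosome 8, 128685654 to 128733200, plus strand, 17 merged exons) encodes β1, the common partner of α4, α6 and αv. It had 242, 202, 230.3 and 223 CPM in plain media. With lactate it had 299, 245, 253 and 223 CPM. The lactate group had the higher mean but the groups overlapped, with a log2 fold change of 0.18 ± 0.13 and an adjusted p of 0.274 (edgeR).

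Itgal and Itgb2 encode αL and β2, the chains of LFA-1, and with lactate the mean of Itgal was higher and that of Itgb2 lower, neither past the threshold. Itgal (chromosome 7, 127296260 to 127335138, plus strand, 32 merged exons) had 556, 479, 512 and 591 CPM in plain media. With lactate it had 764, 551, 783 and 737 CPM, so that 3 of 4 lactate libraries exceeded every plain media library and the fourth did not. The log2 fold change was 0.41 ± 0.19, with an adjusted p of 0.105 (edgeR) and an exact permutation p of 0.0857. Itgb2 (chromosome 10, 77530252 to 77565708, plus strand, 16 merged exons) had 519, 524, 494 and 471 CPM in plain media. With lactate it had 456, 441, 433 and 392 CPM. Every lactate library was lower, but the difference was small, with a log2 fold change of -0.22 ± 0.21, an adjusted p of 0.427 (edgeR) and an exact permutation p of 0.0286. Within the 3 donors the log2 difference of lactate minus plain media was 0.46, 0.11 and 0.32 for Itgal. For Itgb2 in the same donors it was -0.19, -0.16 and -0.27.

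Itga6 (chromosome 2, 71745616 to 71858416, plus strand, 31 merged exons) encodes the laminin-binding α6. It had 78.7, 91.1, 75.1 and 77.2 CPM in plain media. With lactate it had 59.4, 58.9, 60.2 and 62.5 CPM, a narrow range. The groups did not overlap and the log2 fold change was -0.42 ± 0.23, with an adjusted p of 0.177 (edgeR) and an exact permutation p of 0.0286. The estimate of spread took in the naïve libraries, among which Itga6 ran from 61.2 to 159 CPM. Without naïve replicate 4 the adjusted p was 0.0025, and with the 2 activated groups alone it was 0.0018 (edgeR), at log2 fold changes of -0.42 and -0.41. It did not pass with donor as a block, in the activated libraries alone (-0.35, adjusted p = 0.0136, edgeR) or over all 12 libraries (adjusted p = 0.494). Within donors the log2 difference was -0.41, -0.35 and -0.30, so Itga6 was lower with lactate in 3 of 3.

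Itgav (chromosome 2, 83724397 to 83806916, plus strand, 32 merged exons) encodes αv. It ranged from 42.8 to 78.1 CPM in plain media and from 50.0 to 82.2 CPM with lactate. The groups overlapped almost fully, with a log2 fold change of 0.01 ± 0.30 and an adjusted p of 0.998 (edgeR), and its sign turned under each other scaling of the counts. Of its exon bases 5.90% overlap Gm13684 on the opposite strand.

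Itgae (chromosome 11, 73090583 to 73147446, plus strand, 31 merged exons) encodes αE, known as CD103. Plain media libraries had 0.647, 4.97, 1.84 and 2.07 CPM, from 14 to 91 counts. Lactate libraries had 0.666, 1.52, 1.56 and 1.30 CPM, from 13 to 29 counts. The transcript was near the bottom of the scale in both conditions, and its log2 fold change of -0.91 ± 0.57 had an adjusted p of 0.221 (edgeR). Leaving out plain media replicate 2, the highest library, moved the fold change to -0.25, so that library carried most of it.

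**Figure D2:**
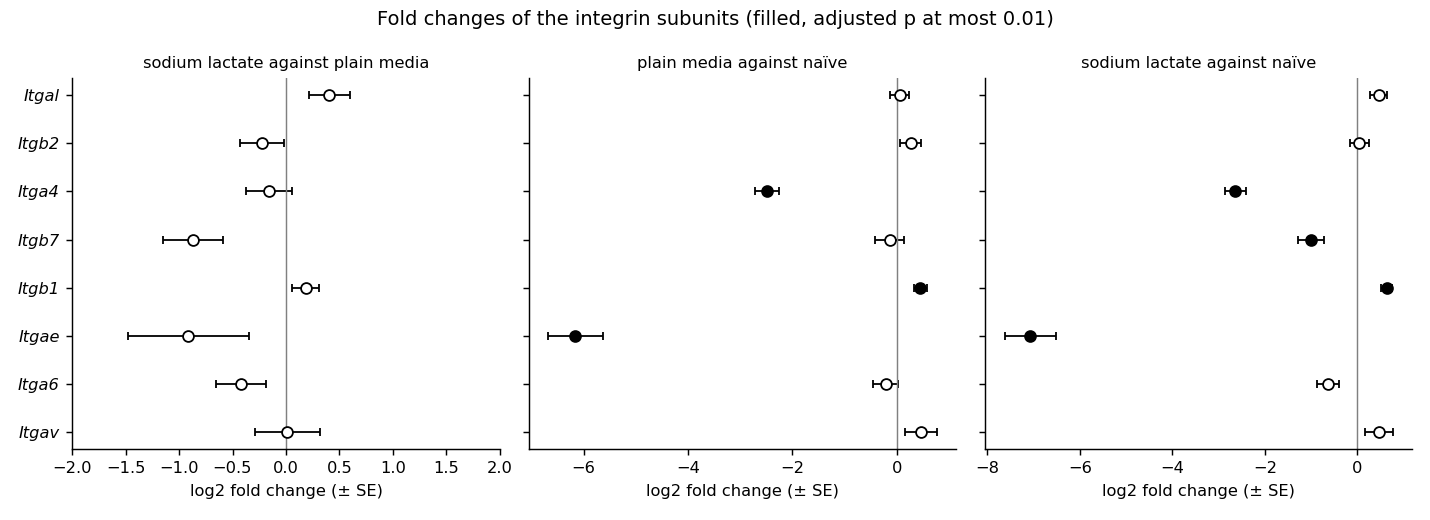
Log2 fold changes of the 8 subunits (horizontal axes, bars ± SE from edgeR, scales differ between panels) for the 3 comparisons, with filled points where the adjusted p was at most 0.01. No point is filled for sodium lactate against plain media, 3 are filled for plain media against naïve and 4 for sodium lactate against naïve.

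The comparison of plain media with naïve cells asks what changed over 72 h of activation in culture with IL-2. Activation, culture and IL-2 cannot be told apart in it. Itgae and Itga4 fell and Itgb1 rose, which is 3 of 8 members called where 57.5% of all tested genes were called. The same 3 were the members whose groups did not overlap, where 61.2% of all tested genes had groups that did not overlap. The median log2 fold change of the 8 was -0.04 and that of all tested genes was -0.03. The lactate libraries set against the same naïve libraries gave 4 of 8 called (Itgae, Itga4 and Itgb7 lower and Itgb1 higher), where 65.0% of all tested genes were called, and 3 of 8 with groups that did not overlap, where the share over all tested genes was 67.8%. The median of the 8 was -0.29 there and that of all tested genes was 0.01. These comparisons share the naïve libraries and are not independent of each other.

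Itgae fell the furthest. Naïve libraries had 244, 144, 204 and 83.9 CPM, from 1497 to 4322 counts. The lowest naïve library had more than any activated library, whose highest was 4.97 CPM. The mean in naïve cells was 71.5-fold that in plain media (log2 fold change -6.16 ± 0.52, adjusted p = 5.49e-07, edgeR) and 135-fold that with lactate (-7.07 ± 0.56, adjusted p = 2.09e-07). In bulk libraries fewer cells that hold a transcript and less of it per cell cannot be told apart.

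Itga4 was the other transcript that fell in both conditions. Naïve libraries had 612, 548, 554 and 743 CPM, where the highest activated library had 171 CPM. The mean in naïve cells was 5.58-fold that in plain media (log2 fold change -2.48 ± 0.23, adjusted p = 1.09e-06, edgeR) and 6.24-fold that with lactate (-2.64 ± 0.23, adjusted p = 4.77e-07). Itgae and Itga4 kept their calls against naïve cells in all 23 alternative fits, with or without naïve replicate 4.

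Itgb1 went the other way. Naïve libraries had 183, 186, 128 and 160.2 CPM, all below the lowest activated library at 202 CPM. The level in plain media was 1.36-fold that in naïve cells (log2 fold change 0.45 ± 0.13, adjusted p = 0.0073, edgeR) and with lactate 1.55-fold (0.63 ± 0.13, adjusted p = 0.00062). The first of these lay close to the threshold and was lost in 12 of 23 alternative fits, and without naïve replicate 3, the lowest library, it was 0.27 with an adjusted p of 0.0615. The second was kept in all 23, at adjusted p-values from 0.00024 to 0.0049.

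Itgb7 had 674, 565, 759 and 255 CPM in the naïve libraries. Naïve replicate 4 lay within the range of the lactate libraries and the other 3 lay above it. Against plain media the log2 fold change was -0.13 ± 0.28 (adjusted p = 0.686, edgeR) and with lactate it was -1.01 ± 0.28 (adjusted p = 0.0059). The call with lactate was lost in 8 of 23 alternative fits, where adjusted p-values reached 0.0209, whereas without naïve replicate 4 it was -1.26 with an adjusted p of 6.07e-05. Within the high run, whose only naïve library is replicate 4, the difference of mean log2 CPM was 0.04 and within the low run it was -1.20, and with a term for the run the adjusted p was 0.0140 (edgeR).

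The other members were not called against naïve cells, and naïve replicate 4 was at the edge of the naïve range for each. Itgal had 569, 543, 637 and 313 CPM and Itgb2 had 527, 473, 455 and 214 CPM in naïve libraries. In both LFA-1 chains replicate 4 was the lowest, below all 8 activated libraries. Itga6 had 79.1, 61.2, 73.6 and 159 CPM and Itgav had 41.4, 34.2, 30.9 and 87.2 CPM. In these replicate 4 was the highest, and without it Itgav was called higher in plain media (log2 fold change 0.90, adjusted p = 0.0024, edgeR) and with lactate (0.91, adjusted p = 0.0019), from 0.46 and 0.47 with it. Itga6 in plain media was -0.21 with replicate 4 and 0.17 without it (adjusted p = 0.437 and 0.141, edgeR). With lactate Itga6 was -0.63 ± 0.23 (adjusted p = 0.0270, edgeR), and from -0.88 to -0.25 with single libraries left out. It kept its direction and side of the threshold in 20 of 23 alternative fits. Within the high run, where replicate 4 is the only naïve library, the difference of mean log2 CPM of Itgav was -1.02 for plain media and -0.61 for lactate, and within the low run it was 1.07 and 1.11.

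Markers of other spleen cells moved with every comparison against naïve libraries. All 8 myeloid markers were lower in plain media than in naïve cells, and their summed level ran from 875 to 2414 CPM in naïve, from 0.647 to 3.82 CPM in plain media and from 0.996 to 2.31 CPM in lactate libraries. All 7 B cell markers were lower too, with sums of 2249.6 to 5161 CPM in naïve, 430.0 to 699 CPM in plain media and 248 to 330.4 CPM in lactate libraries. The 6 dendritic cell markers summed to 76.2 to 156 CPM in naïve, 1.25 to 2.82 CPM in plain media and 1.47 to 4.30 CPM in lactate libraries, and all 6 were lower. Xcr1 and Siglech, which define dendritic subsets, and S100a8 and S100a9 of neutrophils were at 0 in all activated libraries. The 3 CD4+ T cell markers (30.3 to 52.0 CPM in naïve, 3.77 to 6.33 CPM in plain media) were also lower. So were all 5 red cell markers in the table (85.1 to 3495 CPM in naïve, at most 0.231 CPM in plain media). Of the 4 NK cell markers 3 were lower and 1, Klri2, was higher (log2 fold change 1.62, adjusted p = 0.0060, edgeR). The NK cell sums overlapped, at 6.79 to 13.7 CPM in naïve and 4.74 to 18.6 CPM in plain media. Of the platelet markers only Itga2b was in the table and it was not called. Of the 6 CD8+ T cell markers 2 were higher and 1 was lower. The part of these cells in the fall of Itgae and Itga4 was not tested.

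**Figure D3:**
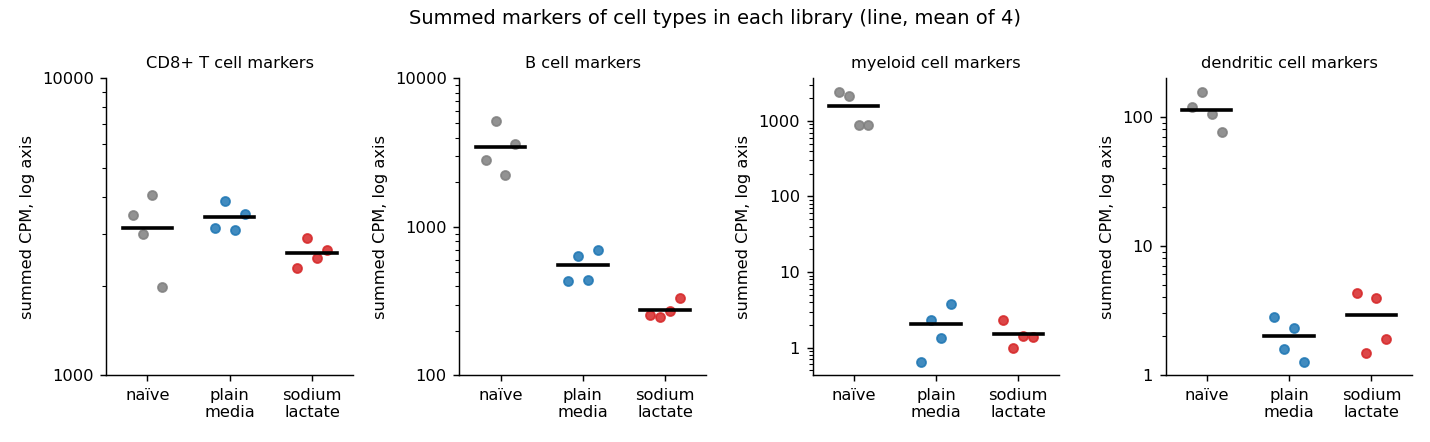
Summed CPM (vertical log axes) of the markers of CD8+ T, B, myeloid and dendritic cells in each library, with a line at the mean of 4. CD8+ T cell markers ran from 1991 CPM in naïve replicate 4 to 4036 CPM in naïve replicate 3, with all activated libraries between, whereas B, myeloid and dendritic cell markers were higher in all 4 naïve libraries than in any activated library.

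Between the activated groups the B cell markers were also lower with lactate (4 of 7 called), most of the sum being Ighm at 536 ± 133 CPM in plain media and 269 ± 37.3 CPM with lactate. The CD8+ T cell markers summed to 3095 to 3879 CPM in plain media and 2303 to 2901 CPM with lactate, with Cd3e (log2 fold change -0.91, adjusted p = 0.00027, edgeR), Cd3g and Cd3d called lower. Trac (-0.40, adjusted p = 0.0104, edgeR) and Cd8a (-0.15, adjusted p = 0.672) were lower and not called. Cd8b1 was higher, at 426 ± 53.2 CPM in plain media and 519 ± 58.8 CPM with lactate, and not called (0.29, adjusted p = 0.343, edgeR). Of the NK cell markers Klri2 was called lower (-1.92, adjusted p = 0.0052, edgeR), and the 4 summed to 4.74 to 18.6 CPM in plain media and 1.42 to 4.14 CPM with lactate. The 3 CD4+ T cell markers summed to 3.77 to 6.33 CPM and 7.23 to 9.41 CPM without overlap, and none was called. Myeloid and dendritic markers were not called in either direction. The part of these shifts in the level of Itgb7 was not tested.

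Ratios between chains were set side by side in TPM, as a description with no test. The ratio of Itgal to Itgb2, the chains of LFA-1, was 0.498, 0.425, 0.482 and 0.583 in plain media and 0.778, 0.581, 0.841 and 0.874 with lactate. In 3 of 4 lactate libraries αL transcripts thus stood higher against β2 than in any plain media library. The naïve libraries ran from 0.501 to 0.679 and overlapped both activated groups. The ratio of Itgb7 to Itgb1 was 2.68, 4.80, 3.08 and 3.12 in plain media and 1.09, 2.25, 1.45 and 1.83 with lactate. These groups did not overlap, and Itgb7 still exceeded Itgb1 in every library. In naïve libraries this ratio ran from 2.35 to 8.73.

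The ratio of Itga4 to Itgb1 separated naïve from activated libraries. It ran from 0.859 to 1.36 in naïve libraries, from 0.0996 to 0.247 in plain media and from 0.0975 to 0.128 with lactate. In naïve cells α4 transcripts were about as abundant as those of β1, and in activated cells they were a small fraction of them. The ratio of Itga4 to Itgb7 was 0.145 to 0.577 in naïve libraries, above every activated library. It was 0.0320 to 0.0514 in plain media and 0.0434 to 0.102 with lactate, and 3 of 4 lactate libraries were above every plain media library. The ratio of Itgae to Itga4 was 0.344 to 1.21 in naïve libraries and at most 0.0887 in activated ones.

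**Figure D4:**
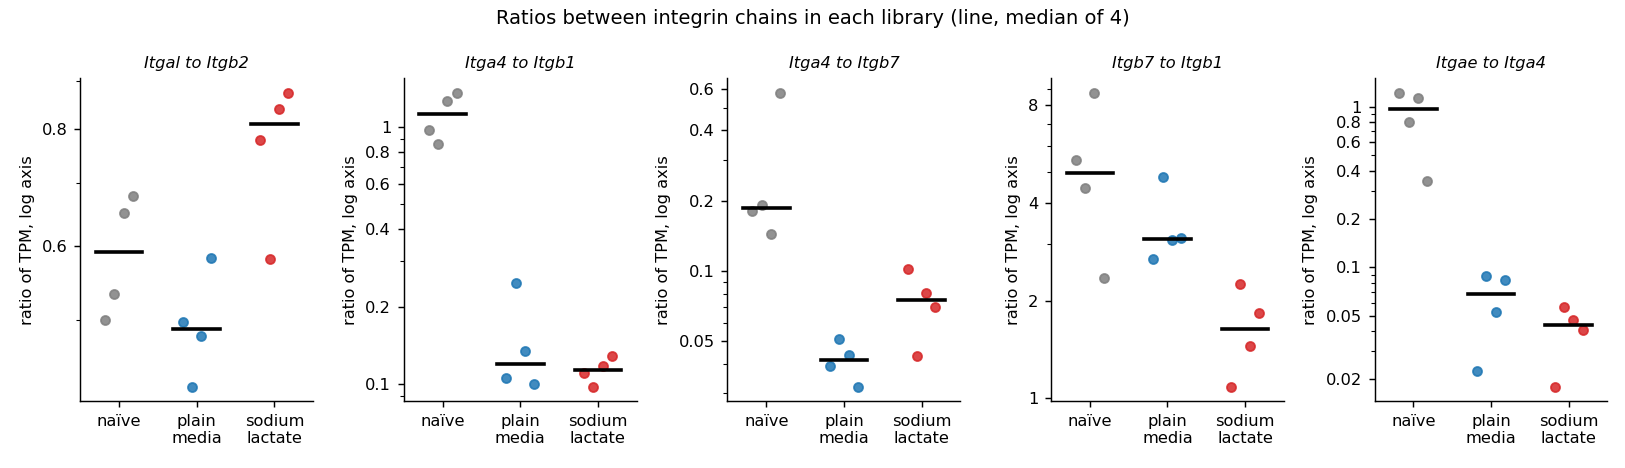
Ratios of TPM between integrin chains (vertical log axes) in each library, with a line at the median of 4 per group. The Itgb7 to Itgb1 ratio was at most 2.25 in the lactate libraries and at least 2.68 in the plain media libraries, and the Itga4 to Itgb1 ratio was at least 0.859 in naïve libraries and at most 0.247 in activated ones.

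The remaining integrin chains in the table were mostly of low level in activated cells. Counted together with the 8 members, 2 of 16 α chains tested were lower with lactate and 0 higher, and 1 of 6 β chains was lower and 0 higher, with medians of -0.09 and -0.55. The 3 called were none of the 8. Itga7, which encodes a laminin-binding α chain, was 30.0 ± 19.4 CPM in plain media and 5.51 ± 2.62 CPM with lactate (a log2 difference of -2.44 ± 0.48, adjusted p = 0.0018, edgeR), and 1.10 ± 0.399 CPM in naïve cells. Itgb4, the β partner of α6 in epithelia, was 4.43 ± 1.29 CPM and 0.723 ± 0.251 CPM (-2.60 ± 0.37, adjusted p = 0.00028). Itga2, a collagen-binding chain, was 3.67 ± 1.25 CPM and 1.30 ± 0.667 CPM (-1.47 ± 0.38, adjusted p = 0.0091). All 3 had groups that did not overlap.

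Itgb3, a β partner of αv, was 135 ± 40.3 CPM in plain media and 64.9 ± 10.7 CPM with lactate, with groups that did not overlap, but was not called (-1.05 ± 0.36, adjusted p = 0.0356, edgeR). Itga3 went the other way, at 10.8 ± 3.28 CPM and 28.6 ± 10.5 CPM, and was not called (1.40 ± 0.52, adjusted p = 0.0488). Itga5, the fibronectin-binding chain, was 9.69 ± 1.87 CPM and 17.3 ± 2.10 CPM (0.84 ± 0.34, adjusted p = 0.0681). Itgad (194 ± 131 CPM), Itga9 (62.1 ± 41.2 CPM), Itgax (50.2 ± 17.4 CPM) and Itgb5 (39.1 ± 26.8 CPM) were found mainly in naïve libraries, as were the myeloid markers, and the highest of their means in activated cells was 3.31 CPM, for Itgb5 with lactate. Itga1, Itga2b, Itga10 and Itgam had means of at most 7.26 CPM in every group.

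Of 18 tested genes that switch integrins on from inside the cell 4 were called lower and 0 higher with lactate, where 25.1% of all tested genes were called. Their median log2 fold change was -0.12, beside -0.0016 over all tested genes. Fyb, the adaptor ADAP that links the T cell receptor to LFA-1, was 368 ± 125 CPM in plain media and 107 ± 12.6 CPM with lactate (a log2 difference of -1.78 ± 0.20, adjusted p = 8.23e-05, edgeR). Rasgrp2, the exchange factor CalDAG-GEFI that loads Rap1, was 173 ± 55.1 CPM and 59.8 ± 19.5 CPM (-1.54 ± 0.26, adjusted p = 0.00074). Cyth3, a cytohesin, was 41.2 ± 6.85 CPM and 15.8 ± 0.693 CPM (-1.38 ± 0.17, adjusted p = 0.00012). The talin and kindlin of T cells were not called, with Tln1 at 569 and 506 CPM (adjusted p = 0.350) and Fermt3 at 323 and 311 CPM (adjusted p = 0.848), and Tln2 was called lower from 2.40 CPM. In plain media against naïve cells 10 of the 18 were lower and 2 higher, where 57.5% of all tested genes were called, 3922 higher and 3993 lower.

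A list of 12 genes held inhibitors of integrins or Rap1 and partners of such inhibitors. Of these 2 were lower and 1 higher with lactate, where 25.1% of all tested genes were called. Rap1gap2, which switches Rap1 off, was 5.18 ± 5.05 CPM in plain media and 0.545 ± 0.128 CPM with lactate (a log2 difference of -3.23 ± 0.70, adjusted p = 0.0032, edgeR). Krit1, whose protein binds Rap1 and ICAP-1, was 119 ± 29.6 CPM and 73.3 ± 8.36 CPM (-0.70 ± 0.17, adjusted p = 0.0062). Itgb1bp1, which encodes ICAP-1 that binds the β1 tail, was 31.4 ± 1.69 CPM and 41.6 ± 0.608 CPM (0.41 ± 0.10, adjusted p = 0.0057). In plain media against naïve cells 4 of the 12 were lower and 2 higher, beside the same 57.5%.

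Of 24 genes of the adhesion complex and its signalling 4 were higher (Vasp, Ptk2, Actn1 and Nedd9) and 2 lower (Lims1 and Ptk2b) with lactate, and their median log2 fold change was 0.10. Lims1, the adaptor PINCH1 of integrin-linked kinase, was 265 ± 39.4 CPM in plain media and 120.1 ± 4.93 CPM with lactate (a log2 difference of -1.14 ± 0.10, adjusted p = 5.56e-05, edgeR). Vasp, an actin filament elongation factor, was 300.2 ± 23.5 CPM and 459 ± 24.3 CPM (0.61 ± 0.08, adjusted p = 0.00017). Ptk2b, the kinase PYK2, was 240.3 ± 35.2 CPM and 156 ± 7.48 CPM (-0.62 ± 0.13, adjusted p = 0.0022). In plain media against naïve cells 14 of the 24 were lower and 3 higher, again beside 57.5%.

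Of 10 integrin ligands 2 were higher and 2 lower with lactate. Spp1, osteopontin, was 4.64 ± 2.25 CPM in plain media and 50.8 ± 29.9 CPM with lactate (a log2 difference of 3.44 ± 0.54, adjusted p = 0.00045, edgeR). Lama5, a laminin chain, was 12.6 ± 6.25 CPM and 53.2 ± 12.2 CPM (2.07 ± 0.35, adjusted p = 0.00072). The ligands called lower, Cdh1 and Fn1, were under 5 CPM in both conditions. Vcam1 was at 604 CPM in naïve libraries and 0.184 and 0.0751 CPM in plain media and lactate libraries, a fall that the myeloid markers shared.

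Of 14 membrane proteins that associate with integrins 1 was higher and 1 lower with lactate. Cd63, a tetraspanin, was 1.04 ± 0.389 CPM in plain media and 7.04 ± 0.596 CPM with lactate (a log2 difference of 2.76 ± 0.35, adjusted p = 0.00013, edgeR). Cd226, the receptor DNAM-1 that acts with LFA-1, was 84.7 ± 17.0 CPM and 36.9 ± 2.86 CPM (-1.20 ± 0.19, adjusted p = 0.00051). Of 13 genes of integrin recycling 1 was higher and 0 lower, namely Arf6, a small GTPase that returns β1 integrins to the surface, at 186 ± 28.0 CPM and 312 ± 30.3 CPM (0.75 ± 0.12, adjusted p = 0.00043). The shares called with lactate in all these lists stand beside the 25.1% of all tested genes given above, and nothing is read from them about the lists as such.

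**Figure D5:**
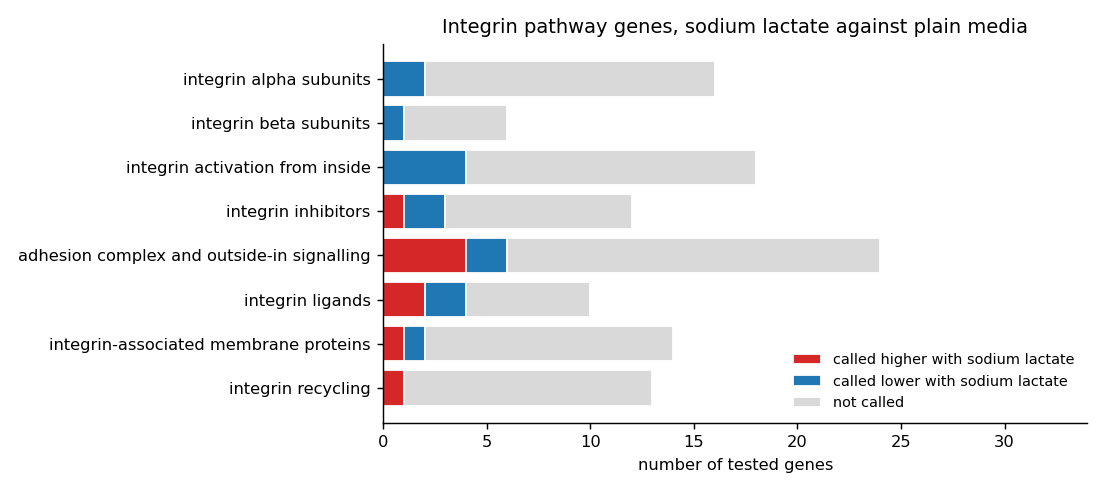
Number of tested genes (horizontal axis) in each integrin pathway list that were called higher, called lower or not called between sodium lactate and plain media (threshold of 0.01 on the adjusted p). Genes that switch integrins on from inside had 4 called lower and 0 called higher, and the adhesion complex had 4 called higher and 2 called lower. Of all tested genes 25.1% were called.

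Across the 12 libraries the transcripts most like each subunit were found by Pearson's r of log2 CPM and are given as a description. Both the spacing of the 3 groups and single libraries can set r. Naïve replicate 4 was the lowest of the 12 libraries for Itgal and Itgb2 and the highest for Itga6 and Itgav. Spearman's rho of the matches of these subunits ran from 0.797 to 0.965, and r was not computed without that library. For Itgae they were Ccr9, a chemokine receptor of gut homing (r = 0.989), and Aldh3b1 (0.986), and Ccr9 went from 160 CPM in naïve cells to 0.166 CPM in plain media and 0.0595 CPM with lactate. For Itgb7 they were Gm32633 (0.980) and BC147527 (0.974), the latter at 23.9, 14.9 and 3.21 CPM in naïve, plain media and lactate libraries. For Itga4 they were Gripap1 and Phf20l1 (0.988 each), for Itga6 Phlpp1 (0.979) and Ccdc157 (0.973), and for Itgav Far1 (0.965) and Sel1l (0.936). For Itgal they were Vps53 (0.944) and C2cd2l (0.939), for Itgb2 Coro7 (0.974) and Enox2 (0.959), and for Itgb1 Gnpda1 (0.952) and Inppl1 (0.949).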

How the data were processed

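RNA was measured by poly(A) RNA-seq in 12 libraries of mouse CD8+ T cells. The authors made reads with bcl2fastq (2.20.0.422 in the submitters' processing notes), aligned them to GRCm38 with STAR (2.7.5b), dropped PCR duplicates, used featureCounts to count reads with a unique position in exons, and deposited raw counts per gene with the gene's length. The strand setting is not given in the sources used here.

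The filter of the study's methods, a minimum of 1 CPM in at least 3 libraries, left 13767 of 13780 genes. Counts were scaled by TMM and fitted in edgeR 4.0.16 (R 4.3.3) with the quasi-likelihood test, all 12 libraries in 1 model with 3 groups and no block, two-sided, with p-values adjusted by Benjamini-Hochberg over the 13767 genes and called at 0.01. Standard errors were obtained from the log2 fold change and the root of the F statistic. DESeq2 1.42.0, limma 3.58.1 (voom), other scalings, filters, blocks and left-out libraries were alternatives. Exact permutation tests ran over the 70 arrangements of 4 against 4 values of log2 CPM, with a prior count of 2. TPM used the lengths of the table, which equal the merged exons of GENCODE M21 for 7 of the 8 genes. Positions are of GRCm38.

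Groups and replicate numbers came from the titles, and donors and library numbers from the sample labels (8 libraries numbered 1 to 9, 4 numbered 16 to 26). Donors paired 3 plain media with 3 lactate libraries, and their deviations from the group means correlated at 0.553, 0.374 and 0.211 across genes, whereas title numbers gave 0.374, 0.297, 0.0038 and 0.553. The 8 members and the gene lists were chosen with earlier results of these data known. Named genes were the 8 members, the 2 transcripts most correlated with each, the other tested integrin chains and, per list, up to 3 genes called with lactate that reached 5 CPM in an activated group. Cdh1, Fn1, Tln1, Tln2, Fermt3, Vcam1, Ptk2, Actn1 and Nedd9 were named after their values were seen.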

Additional observations from a re-analysis of the deposited data

Results flagged for a closer look

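In none of the 24 groups of 4 values (8 subunits in 3 groups, CPM) did the highest or lowest library stand far enough from the rest to pass Dixon's criterion, so 0 results were set apart by it. Naïve replicate 4 was at an edge of the naïve range for 7 of the subunits all the same.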

How the results depend on the processing

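Among 568 recomputed values of the 8 subunits over up to 25 alternatives, 507 kept their direction and their side of the threshold. Genes called between lactate and plain media numbered 3451, 992 with the replicate block by donor over all 12 libraries, 5461 at a threshold of 0.05 and 2252 to 4845 with single libraries left out, the lowest without plain media replicate 2. Subunits called in that comparison numbered 0, 1 by DESeq2, 2 with the compared groups alone, 1 at a threshold of 0.05, 1 with the donor block on activated libraries alone (added after seeing the data) and 0 to 2 with single libraries left out, with 2 (Itga6 and Itgb7) without naïve replicate 4. The block by title number paired libraries that do not all share a donor and changed no subunit's call.

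The 28 values that turned sign were small and uncalled, and the cause was not tested. For Itgav between lactate and plain media they were -0.0208 with DESeq2 size factors, -0.0138 by upper quartile, -0.0291 by total counts, -0.0203 by DESeq2, -0.00091 with the replicate block by title number, -0.0129 with a term for the library run and -0.15 to 0.13 with single libraries left out. Itga4 in that comparison was 0.12 with the donor block, 0.13 with the donor block on activated libraries alone and -0.30 to 0.13 with single libraries left out. Itgal between plain media and naïve cells was -0.0069 with DESeq2 size factors, -0.0069 by DESeq2 and -0.13 to 0.10 with single libraries left out, and Itga6 was -0.45 to 0.17. Itgb2 between lactate and naïve cells was -0.0485 with DESeq2 size factors, -0.0153 by upper quartile, -0.0060 with at least 10 counts in every library, -0.0485 by DESeq2, -0.0107 with the compared groups alone and -0.18 to 0.16 with single libraries left out. Itgae in activated libraries rested on 13 to 91 counts, which limits its comparison between them.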

Other observations

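The make-up of each chain class among the 8 subunits was computed as a share of their summed TPM in a library, as a description. Of the 5 α chains, Itgal made up 44.5% ± 8.33 (SD, n = 4) in naïve, 77.6% ± 5.20 in plain media and 84.1% ± 1.99 in lactate libraries. Itga4 made up 25.9% ± 7.35, 7.56% ± 3.04 and 5.51% ± 0.286, and Itgae 20.6% ± 6.17, 0.499% ± 0.390 and 0.222% ± 0.0897. Of the 3 β chains, Itgb7 made up 52.3% ± 6.08 in naïve, 45.5% ± 4.55 in plain media and 33.0% ± 5.84 in lactate libraries. Itgb2 made up 35.9% ± 2.52, 40.8% ± 2.62 and 46.4% ± 3.12, and Itgb1 11.8% ± 5.40, 13.7% ± 1.99 and 20.6% ± 2.80. Between plain media and lactate the ranges did not overlap for Itgb7 (40.9% to 51.8% against 26.3% to 39.8%) or Itgb1 (10.8% to 15.3% against 17.7% to 24.2%). Among the α chains they did not overlap for Itga6 (7.80% to 9.67% against 4.68% to 6.25%). The shares of a class sum to a whole, so they do not move independently.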
